A study of Mus musculus with 9 samples.

Results

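Exposure of B16F1 melanoma cells to L-Tyr was compared with unexposed cells (control) across the known miRNAs, arm by arm, and then by seed family, genomic cluster and hairpin. The comparison used 6 of the 9 libraries of the series, 3 with L-Tyr (5 mM) and 3 control, taken by their labels. B16F1 is an established melanoma line from skin of C57BL/6J mice, with the strain labelled C57BL/6, and all cells were kept for 72 h in the same medium, which was not changed after the amino acid was added. The remaining 3 libraries, of cells given 5-Brd-2′-dU (at 2.5 µg/mL) over the same 72 h, were used for 1 test and in an alternative fit of all 9 libraries. The G and C content of tags, and the shares of counts under more than 1 hairpin or with a RefSeq sequence, were also taken over all 9. The study's methods give 3 independent replicates as its general rule, and the labels do not say whether each library came from its own culture, so the p-values measure the spread between these libraries.

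L-Tyr is the substrate from which tyrosinase makes melanin, and in this line the study used it to induce pigmentation. A miRNA is cut from the 5′ (5p) or the 3′ (3p) arm of a hairpin transcript and guides Argonaute to mRNAs mainly through its seed, the bases from the second to the eighth. Arms of different hairpins with the same seed form a family with largely shared targets. Hairpins that lie close together are often made from 1 transcript, and many lie in introns of protein-coding genes, as miR-211 does in the melanocyte gene Trpm1.

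The sequences below are those of the arms on which the results turn. They are the RefSeq mature sequences (from the tables of build GRCm38.p6), written 5′ to 3′ with the seed in capitals.
miR-129-5p: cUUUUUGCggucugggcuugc
miR-129-3p: aAGCCCUUaccccaaaaagcau
miR-1249-3p: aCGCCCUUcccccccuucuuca
miR-211-5p: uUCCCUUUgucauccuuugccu
miR-211-3p: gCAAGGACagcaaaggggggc
let-7d-5p: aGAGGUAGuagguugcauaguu
let-7a-5p: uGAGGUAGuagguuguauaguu
let-7d-3p: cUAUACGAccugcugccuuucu
miR-148b-3p: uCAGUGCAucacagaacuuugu
miR-152-3p: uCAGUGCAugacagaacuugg
The counts listed under miR-3963 belong almost wholly to a single tag of 18 nt, which held 99.9% of them in the 6 libraries. It is shown with capitals for the 16 bases that also occur in the RefSeq hairpin of that name.
miR-3963 tag: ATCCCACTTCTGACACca
miR-129-3p and miR-1249-3p hold the same bases, gcccuu, at positions 3 to 8. Of the 200 tested arms with a RefSeq sequence, 3 do so, the 3p arms of mir-129-1, mir-129-2 and mir-1249, which was noticed after their values were seen. let-7d-5p and let-7a-5p share 1 seed, as do miR-148b-3p and miR-152-3p. miR-30d-5p, miR-99b-5p and miR-328-3p are named without a sequence.

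The control libraries held 195340, 419408 and 259290 counts in tags of known hairpins, and the L-Tyr libraries 140113, 233939 and 170793. A count of 0 allows up to 3 counts, which were worth 7.15 to 21.4 CPM (a count divided by its library's total and scaled to a fixed sum), and this limit covers counting error only. The tags of 391 hairpins fell into 543 arms, of which 460 had a count in the 6 libraries. The L-Tyr libraries had counts in 250 to 290 arms each and the control libraries in 283 to 350. Correlations of log2 CPM were 0.868 to 0.939 between control libraries and 0.811 to 0.860 between L-Tyr libraries. L-Tyr replicate 3 stood apart on the first principal component (31.3% of the variance) and replicate 1 on the second (28.8%). The arms called without each of them and without both are therefore also given. Levels below are CPM of the TMM-scaled total, as mean ± SD of 3 libraries, and in bulk RNA less RNA per cell cannot be told apart from fewer cells that carry it.

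With L-Tyr, miR-30d-5p, both arms of miR-129 and miR-1249-3p were over-expressed, let-7d-5p and the arm listed under miR-3963 were under-expressed, and the other arms did not pass the test. Of 237 arms tested with edgeR, 5 were over-expressed in L-Tyr (2.11% of those tested) and 2 were under-expressed (0.844%) at an adjusted p under 0.05. At an unadjusted p under 0.05 there were 19 higher and 12 lower arms. Groups that did not overlap were seen for 24 arms with L-Tyr above control (10.1%) and 22 below (9.28%). The coefficient of variation between replicates beyond counting error was 0.747, and the median log2 fold change of all arms was −0.05. Scaling by total count moved that median to 0.07 and the calls to 8 higher and 1 lower, DESeq2 size factors gave 5 and 1, and a correction for base composition gave 7 and 1.

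**Figure D1:**
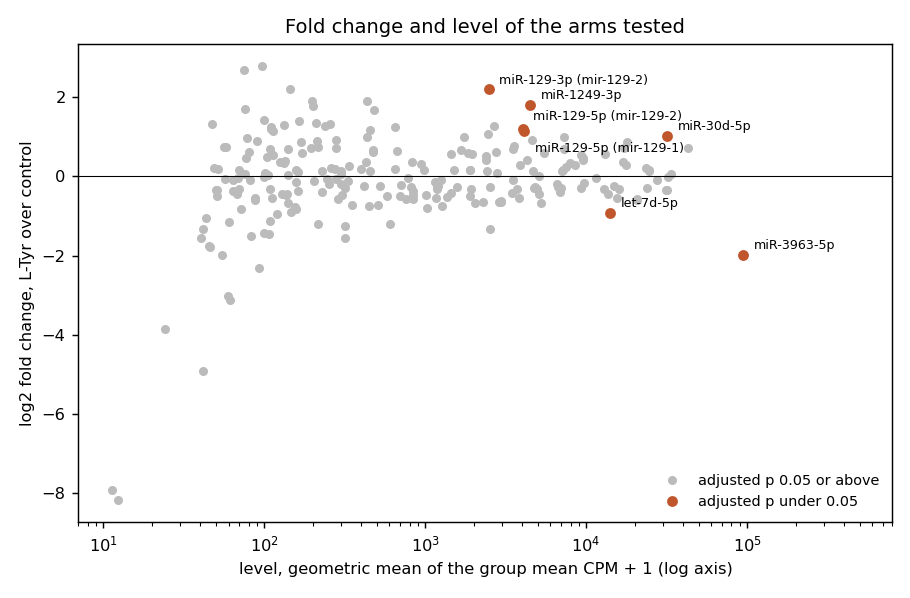
Each point is 1 of the 237 miRNA arms tested. The horizontal axis is its level (geometric mean of the 2 group means in CPM, with 1 added, log axis) and the vertical axis its log2 fold change, L-Tyr over control. The 7 arms with an adjusted p under 0.05 are in orange with their names, and the widest spread lies at low levels.

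miR-30d-5p, a miRNA linked to melanoma invasion, was the arm with the smallest p among those over-expressed. It had 21577, 24308 and 20976 CPM in the control libraries and 49829, 41710 and 44173 CPM in L-Tyr. All L-Tyr libraries were above all control libraries, and the means were 22287 ± 1776 and 45238 ± 4163 CPM. This gave a log2 fold change of 1.02 (SE 0.154) at an adjusted p of 0.00728. Its hairpin lies on chromosome 15 of mm9 (68172770 to 68172851, minus strand), with no annotated gene on its strand.

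miR-129-5p is known as a repressor of Cdk6 and of proliferation, and 2 hairpins carry it, mir-129-1 on chromosome 6 (28972619 to 28972691, plus strand) and mir-129-2 on chromosome 2 (94081521 to 94081610, minus strand). Neither lies in an annotated gene on its strand. Under mir-129-2 it had 2503, 2726 and 2754 CPM in control and 6100, 6648 and 5562 CPM in L-Tyr, a log2 fold change of 1.20 (SE 0.207, adjusted p = 0.0126). Under mir-129-1 the log2 fold change, 1.16 with an SE of 0.210, had an adjusted p of 0.0126. These are not independent results, because 99.2% and 97.5% of the counts of the 5p arms of mir-129-2 and mir-129-1 lie in tag sequences listed under more than 1 hairpin.

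The 3p arms share less. For miR-129-3p of mir-129-2, 2.98% of the counts are shared, and its levels were 782, 1314 and 1366 CPM in control against 6903, 2665 and 6378 CPM in L-Tyr. The groups did not overlap, with replicate 2 of L-Tyr the lowest of the exposed libraries. The log2 fold change of 2.20 (SE 0.389, adjusted p = 0.0126) was the largest among the 7 called arms. The 3p arm counted under mir-129-1, of which 19.1% is shared, had 167, 202 and 437 CPM in control and 1051, 352 and 1195 CPM in L-Tyr. Its groups overlapped and its log2 fold change of 1.69 (SE 0.667) had an adjusted p of 0.257.

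miR-1249-3p lies on chromosome 15 (84781956 to 84782053, minus strand) in an exon of the transcript 5031439G07Rik. Its levels were 2059, 2364 and 2727 CPM in control and 9975, 4269 and 10828 CPM in L-Tyr. Here too replicate 2 of L-Tyr was the lowest of the exposed libraries, above all controls. This gave a log2 fold change of 1.81 (SE 0.336) at an adjusted p of 0.0126.

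let-7d-5p, a member of the growth-restraining let-7 family, fell from 21673, 14419 and 22134 CPM in control to 10274, 11339 and 9170 CPM in L-Tyr. The groups did not overlap, and the log2 fold change, −0.92 with an SE of 0.209, had an adjusted p of 0.0464. Of 20 alternatives 8 called it, and all 20 gave a lower level in L-Tyr. Its call was lost, for example, with the correction for base composition (−0.68, adjusted p = 0.16). The arm listed under miR-3963 had 26872, 69586 and 57957 counts in control libraries and 7176, 11447 and 8110 in L-Tyr. On the CPM scale the arm fell from 187509 ± 65625 to 47480 ± 4234, a log2 fold change of −1.98 (SE 0.227, adjusted p = 0.00134). Leaving it out before scaling kept the other 6 calls. The tag behind this arm ends in bases that the hairpin does not hold, and whether it comes from a miRNA or from another small RNA was not tested.

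The calls depended on which libraries entered the fit. Without L-Tyr replicate 1, or without replicate 3, the arm under miR-3963 was the only one called, and without replicate 2 there were 15 calls. Without control replicates 1, 2 and 3 in turn, 4, 3 and 4 arms were called. Without replicate 1 the log2 fold changes of miR-30d-5p and of miR-129-3p and miR-129-5p of mir-129-2 were 0.87, 1.89 and 1.12, that of miR-1249-3p was 1.59, and that of let-7d-5p without replicate 3 was −0.87. With replicates 1 and 3 both left out, against a single exposed library assumed to vary as the controls do, 3 arms were called. These were miR-129-5p of mir-129-2 (1.33, adjusted p = 0.0176), miR-3963 (−2.06) and miR-143-3p (2.01). Under the same setting miR-1249-3p was at 0.85 (adjusted p = 0.404), miR-129-3p of mir-129-2 at 1.21 (adjusted p = 0.201) and miR-30d-5p at 0.91 (adjusted p = 0.201).

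**Figure D2:**
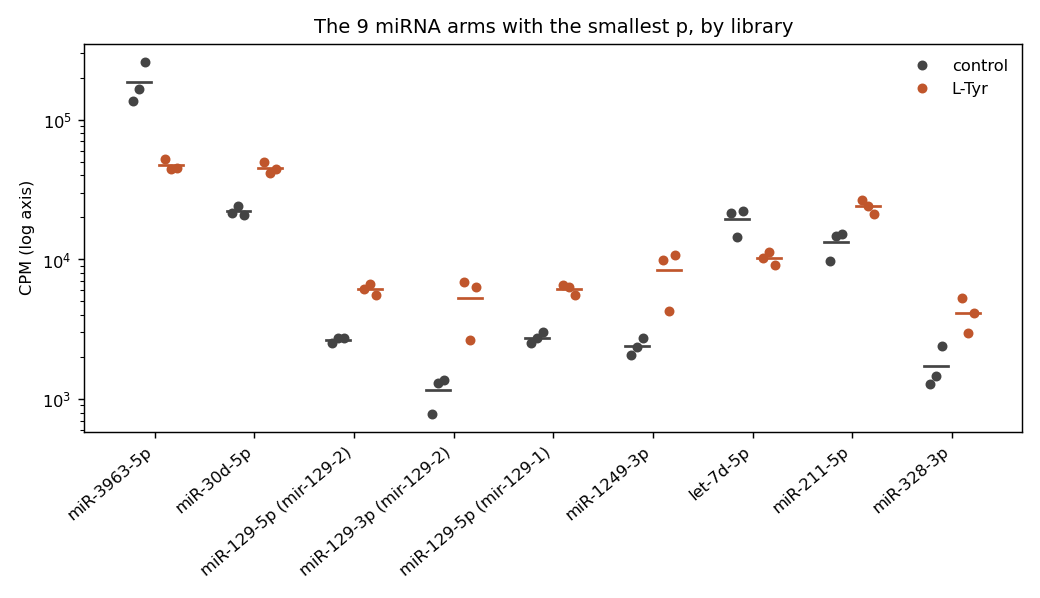
Level in CPM (log axis) of the 9 arms with the smallest p, in each of the 3 control libraries (grey) and the 3 L-Tyr libraries (orange), with bars at the means. The groups do not overlap for any of the 9, and the L-Tyr library nearest to the controls for miR-129-3p and miR-1249-3p is replicate 2 (2665 and 4269 CPM).

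miR-211 is the pigment cell miRNA, expressed from an intron of Trpm1 under the melanocyte regulator Mitf (chromosome 7 of mm9, 71350692 to 71350797, plus strand). miR-211-5p had 9769, 14729 and 15332 CPM in control and 26772, 24283 and 21327 CPM in L-Tyr. All exposed libraries were above the controls, but the log2 fold change of 0.86 (SE 0.208) had an adjusted p of 0.0608. Of 20 alternatives, 7 called it and all 20 gave a higher level in L-Tyr, with adjusted p from 0.00492 to 0.355. With the correction for base composition it was 1.02 (adjusted p = 0.0192). miR-211-3p had 1151, 999.8 and 1560 CPM in control and 2408, 2371 and 2625 CPM in L-Tyr, with a log2 fold change of 1.00 (SE 0.295, adjusted p = 0.121). The share of hairpin counts in the 5p arm was 91.3% ± 2.14 (SD, n = 3) in control and 90.6% ± 1.41 (SD, n = 3) in L-Tyr. miR-204-5p, its seed relative, stayed at 14 counts or fewer in each library.

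Other arms lay near the threshold. miR-328-3p had 1719 ± 605 CPM in control and 4127 ± 1185 CPM in L-Tyr, a log2 fold change of 1.26 (SE 0.325, adjusted p = 0.0814). miR-99b-5p (0.72, SE 0.208), miR-10b-5p of the Hoxd3 locus (0.57, SE 0.168) and miR-149-5p in an intron of Gpc1 (0.77, SE 0.231) all had an adjusted p of 0.121 and groups that did not overlap. With the correction for base composition miR-10b-5p was called (adjusted p = 0.0192). miR-203-3p, a keratinocyte miRNA, had 224 ± 42.9 CPM in control and 844 ± 405 CPM in L-Tyr (log2 fold change 1.91, SE 0.589, adjusted p = 0.132). miR-652-3p overlapped between groups, since its lowest L-Tyr library had 5623 CPM and its highest control library 5978 CPM (log2 fold change 1.00, SE 0.322).

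On the lower side, miR-148b-3p, which targets Mitf in melanoma cells, had 3280, 4516 and 4310 CPM in control and 2123, 1996 and 676 CPM in L-Tyr. The groups did not overlap, and the log2 fold change, −1.34 with an SE of 0.397, had an adjusted p of 0.121. miR-3074-3p had 23, 50 and 50 counts in control and 0 in each L-Tyr library, so it was at least 27.9-fold lower, against 3 counts over the group. miR-421-3p had 14, 43 and 47 counts in control and 0 in L-Tyr, at least 23.6-fold lower on the same floor. Their adjusted p-values were 0.121 and 0.136. let-7a-5p, counted nearly in full under both let-7a-1 and let-7a-2, changed by −0.59 (SE 0.189) and −0.58 (SE 0.185) with an adjusted p of 0.136.

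Among the 10 arms with the highest level in control cells, only that under miR-3963 was called. let-7c-5p had log2 fold changes of −0.35 under both of its hairpins, and let-7b-5p of −0.09. miR-378a-3p was at 33054 ± 2092 CPM in control and 34369 ± 4412 CPM in L-Tyr. miR-92a-3p of mir-92a-1 was at 32435 ± 6853 and 31904 ± 8067 CPM. miR-27b-3p was at 26247 ± 538 and 21475 ± 2938 CPM (log2 fold change −0.29, SE 0.163, adjusted p = 0.463), and the L-Tyr libraries all lay below the controls. Its 5p arm had too few counts to be tested, and no tag of miR-470, another miRNA the study took to RT-qPCR, was among those analysed.

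Summed by seed, 5 of 145 families were called (3.45% of those tested), 3 higher and 2 lower. The family fit covers arms with a RefSeq sequence, which hold 80.1% of the counts, so the miR-30 and miR-99 seeds are incomplete in it. The families called higher were miR-129-3p (log2 fold change 1.87, SE 0.378, adjusted p = 0.0217), miR-129-5p (0.94, SE 0.194) and miR-1249-3p (1.57, SE 0.330). Those called lower were miR-3963 (−2.22, SE 0.214) and let-7, the only called family with several miRNAs. The miR-3963 family was set by the RefSeq seed, guauccc. The tag that holds nearly all its counts starts within that seed and does not contain it in full. The family values are not on the scale of the arms, because the family table was scaled on its own rows. Its median log2 fold change was −0.15, and with the library scale of the arm fit it was 0.11. On that scale miR-129-3p had 2.12, miR-129-5p 1.18, miR-1249-3p 1.81 and miR-3963 −1.98, and these 4 families were called.

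The let-7 family, with miR-98, summed to 45484, 77968 and 55832 counts in control and 21918, 43674 and 30971 in L-Tyr. In CPM of the family fit these were 292043 ± 44197 and 187068 ± 15672, without overlap, and the log2 fold change, −0.64 with an SE of 0.142, had an adjusted p of 0.0257. Of its 13 arms 12 were tested singly, and every one of the 12 had a value below 0, from −0.09 for let-7b-5p to −0.92 for let-7d-5p. One of them was called. The 12 values are not independent. let-7a-5p, let-7c-5p and let-7f-5p each stand under both of their hairpins, with at least 96.2% of the counts in shared tag sequences. miR-98-5p had 1, 260 and 0 counts in L-Tyr and an SE of 1.53. The family was lost without control replicate 1, control replicate 3, L-Tyr replicate 1 or L-Tyr replicate 3, and the miR-3963 family alone was called without control replicate 1, L-Tyr replicate 1 or L-Tyr replicate 3. The let-7 family was also not called when each tag sequence was counted once, nor on the library scale of the arm fit (−0.40, SE 0.137, adjusted p = 0.146). With the correction for base composition the let-7 list of both arms went from a median of −0.32 (14 of 18 values below 0) to −0.01 (9 of 18).

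The families next in p were not called. miR-31-5p had a log2 fold change of −0.90 (SE 0.235, adjusted p = 0.0634), and the miR-148/152 family, which targets Mitf, had −1.33 (SE 0.352, adjusted p = 0.0634). On the arm scale they had −0.67 and −1.09, and in the arm fit miR-148b-3p was at −1.34 and miR-152-3p at −0.54 (SE 0.472), the latter with overlapping groups. The miR-27 family had −0.62 (SE 0.184, adjusted p = 0.11) on the family scale and −0.39 (SE 0.181) on the arm scale. Its arms had −0.54 (miR-27a-3p, SE 0.258) and −0.29 (miR-27b-3p, SE 0.163) in the arm fit.

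Of 31 genomic clusters, hairpins within 10000 bp of a neighbour on 1 strand, 2 were called (6.45% of those tested), both higher. The cluster table was also scaled on its own rows, so its values are not on the scale of the arms. The mir-30b and mir-30d cluster had 5152, 11932 and 5473 counts in control and 7102, 11937 and 8297 in L-Tyr. Summed, it changed by 0.92 on the log2 scale (SE 0.172, adjusted p = 4.02e-05). Its members differed. miR-30b-5p had 4370, 4014 and 3615 CPM in control and 1992, 4832 and 2161 CPM in L-Tyr (−0.41, SE 0.342, adjusted p = 0.673), where the log2 fold change of miR-30d-5p was 1.02.

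The second cluster called, let-7e, mir-125a and mir-99b, had a log2 fold change of 0.63 (SE 0.155, adjusted p = 0.00186). The arms within it also differed. miR-99b-5p and miR-125a-5p were at 0.72 and 0.50 (SE 0.353), while let-7e-5p, with 4642 ± 606 CPM in control, was at −0.56 (SE 0.269), and none of them was called singly. This call was lost without control replicate 1, control replicate 2 or L-Tyr replicate 1. Without L-Tyr replicates 1 and 3, 0 clusters were called, with 5 at an unadjusted p under 0.05.

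The cluster of let-7d, let-7f-1 and let-7a-1 had −0.43 (SE 0.153, adjusted p = 0.0713) and that of mir-100 and let-7a-2 had −0.52 (SE 0.210, adjusted p = 0.123). On the library scale of the arm fit both were called lower, at −0.49 and −0.58, each with an adjusted p of 0.0472. They are not independent, since let-7a-5p is counted in both. The cluster of mir-100 and let-7a-2 had 5093, 8730 and 6639 counts in control and 2103, 4404 and 3318 in L-Tyr. Of these, let-7a-5p made up 5077, 8650 and 6636, and 2102, 4370 and 3315. Tags shared with another hairpin held 99.8% of the let-7a-5p counts, so the value describes let-7a-5p and not mir-100 or this locus. The cluster with let-7d held arms on both sides of 0, with let-7d-5p at −0.92 and let-7d-3p at 0.91. The cluster of mir-191 and mir-425 had 0.54 (SE 0.240, adjusted p = 0.177), and miR-191-5p had no overlap between groups (0.54, SE 0.182). The cluster of mir-130b and mir-301b had −0.55 (SE 0.284, adjusted p = 0.288).

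**Figure D3:**
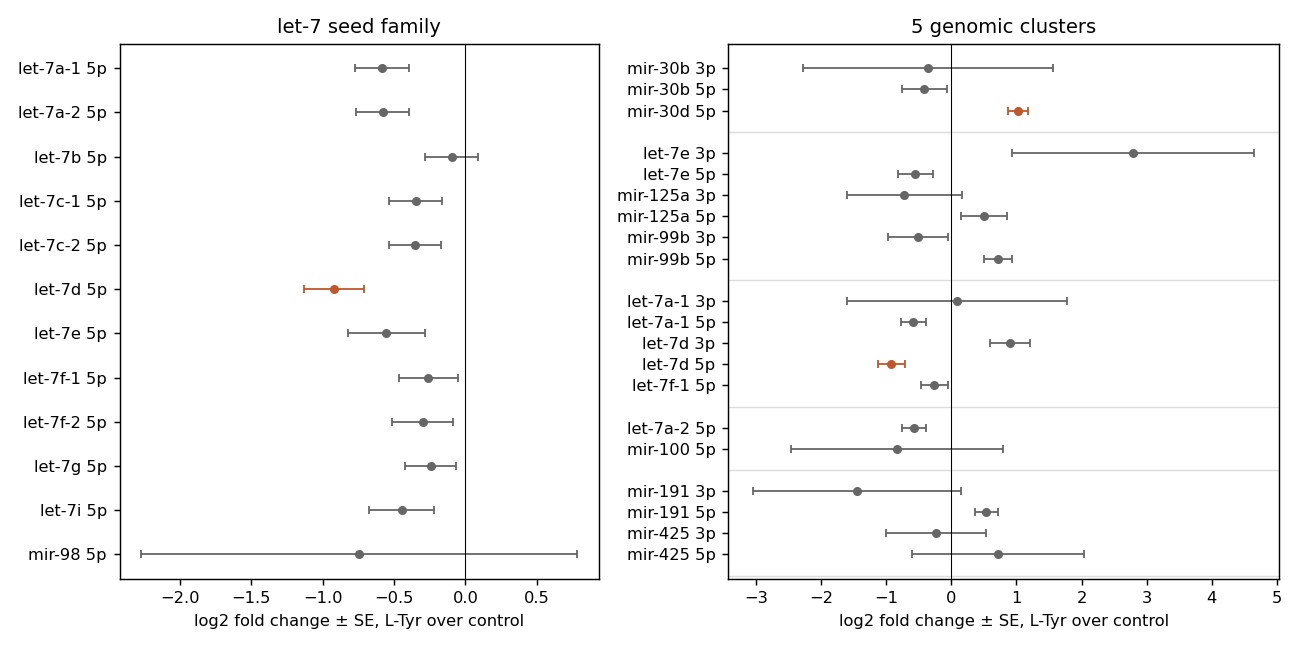
Log2 fold change, L-Tyr over control, with its SE for the tested arms of the let-7 seed family (left) and of 5 genomic clusters separated by lines (right), with called arms in orange. The 12 let-7 arms all lie at or below −0.09, while arms of 1 cluster, such as mir-30b 5p (−0.41) and mir-30d 5p (1.02), lie on both sides of 0. The arms of let-7a, let-7c and let-7f appear under both of their hairpins, whose counts are nearly all shared.

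The arms of a hairpin were then set side by side. Among 63 hairpins with both arms tested, 37 (58.7%) had log2 fold changes of the same sign in 5p and 3p, and across these hairpins the values had a Pearson correlation of 0.232 and a Spearman correlation of 0.183. This describes the same 6 libraries and is no test. The ratio of 5p to 3p counts, which needs no scaling between libraries, was tested for 71 hairpins with limma, and 0 were called (0%), with 5 at an unadjusted p under 0.05 and a smallest adjusted p of 0.14. let-7d had 91.0%, 82.5% and 81.8% of its counts in the 5p arm in control and 58.7%, 68.3% and 58.6% in L-Tyr. The groups did not overlap, and the log2 ratio changed by −1.88 (SE 0.695, adjusted p = 0.503).

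For mir-181b-1 the 5p share was 79.9% ± 8.88 (SD, n = 3) in control and 99.1% ± 1.53 in L-Tyr (log2 ratio change 4.59, SE 0.984, adjusted p = 0.14). For mir-340, whose 5p arm targets Mitf, it was 92.1% ± 3.13 in control and 100% in all 3 L-Tyr libraries (3.57, SE 0.789, adjusted p = 0.14). The 3p arms behind these shares were small. miR-181b-3p had 65, 52 and 54 counts in control and 0, 5 and 0 in L-Tyr, and miR-340-3p had 16, 42 and 11 in control and 0 in L-Tyr. For mir-25 the 5p share went from 2.53% ± 0.960 to 0.168% ± 0.291 (−3.92, SE 0.997, adjusted p = 0.182). For mir-129-2 it was 70.2% ± 5.22 in control and 46.9%, 71.4% and 46.6% in L-Tyr, with an adjusted p of 0.716.

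**Figure D4:**
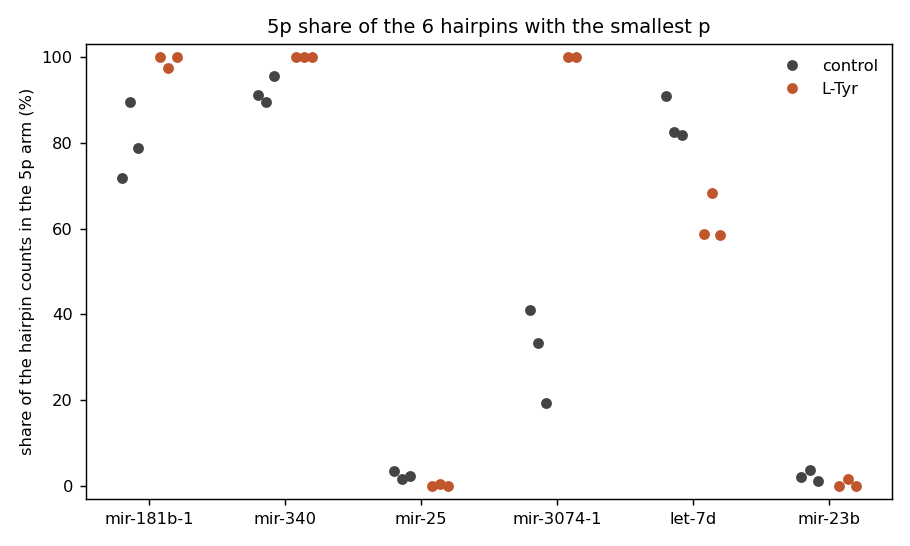
Share of a hairpin's counts that lie in its 5p arm (%), in each control (grey) and L-Tyr (orange) library, for the 6 hairpins with the smallest p in the test of the 5p to 3p ratio. The let-7d share is 81.8 to 91.0% in control and 58.6 to 68.3% in L-Tyr, and mir-3074-1 has no count in L-Tyr replicate 3, so that it has 2 points there.

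The position at which the tags of an arm start was compared for 114 arms with at least 50 counts in each library. The tags are at most 20 nt long and cover the miRNA in overlapping windows, so a tag's start is not the 5′ end of the miRNA. At an adjusted p under 0.05, limma called 0 of them (0%), with 10 at an unadjusted p under 0.05. For miR-574-3p the share of counts at the main start was 25.4% ± 6.82 (SD, n = 3) in control and 45.0% ± 5.01 in L-Tyr, and for let-7b-3p it was 46.2% ± 8.79 and 17.4% ± 11.6. Both had an adjusted p of 0.405. For miR-3963 the share was above 99.7% in every library.

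Lists of miRNAs with known roles were described by counts and medians. Over all 237 arms tested, 2.11% were called higher and 0.844% lower, and 10.1% and 9.28% lay above and below control without overlap. Of the 20 tested arms of miRNAs that act on pigmentation genes, 9 had values above 0 and 11 below, 0 were called, and the median was −0.07, where that of all arms was −0.05. The median of these 20 ran from −0.28 without L-Tyr replicate 2 to 0.09 without L-Tyr replicate 1. Both arms of miR-211 and miR-203-3p lay above control without overlap, while miR-27b-3p, miR-148b-3p, miR-340-5p (−1.21, SE 0.483, adjusted p = 0.257) and miR-25-5p lay below. Of these miR-148b and miR-340 are known to target Mitf. miR-25-5p had 24, 29 and 19 counts in control and 0, 4 and 0 in L-Tyr. Among the growth-promoting miR-17-92a, miR-106b-25 and related clusters all 13 tested arms had values below 0, with a median of −0.46. None of the 13 was called, and under scaling by total count 10 of the 13 were below 0, with a median of −0.41 beside 0.07 for all arms. Their median was −0.17 without control replicate 1 and −0.97 without control replicate 3. miR-106b-3p was at −0.30 (SE 0.228). Summed as clusters, mir-17 to mir-92a-1 was at 0.03 (SE 0.189, adjusted p = 0.924), mir-106b to mir-25 at −0.29 (SE 0.221, adjusted p = 0.58) and mir-363 to mir-18b at −0.25 (SE 0.275, adjusted p = 0.58), each on the scale of the cluster fit.

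The miRNAs that restrain the cell cycle (15 arms tested) had a median of −0.16 and 0 calls, with miR-15b-5p at 0.29 (SE 0.168) and miR-29a-3p at −0.31 (SE 0.232). The median was −0.31 to −0.22 without each library in turn. It was 0.07 with the correction for base composition and −0.05 with scaling by total count. miR-34a-5p, miR-34b-3p and miR-34c, which p53 induces, had too few counts to be tested. miR-34b-3p had 0, 10 and 5 counts in control and 39, 26 and 5 in L-Tyr, and was named after its values were seen. Of the p53-induced list 5 arms were tested and 0 called, with a median of 0.03 and miR-107-3p at −0.75 (SE 0.430). That median ran from −0.38 without L-Tyr replicate 3 and −0.31 without control replicate 2 to 0.51 and 0.75 without control replicates 1 and 3, and was 0.32 without L-Tyr replicate 1. Of 8 tested arms of the melanoma-promoting list, 1 was called, miR-30d-5p, where 2.11% of all arms tested were called higher. The median was −0.05, with miR-183-5p at −0.39 (SE 0.294). It ran from −0.15 without control replicate 2 to 0.29 without L-Tyr replicate 1, and was 0.47 without L-Tyr replicates 1 and 3. The list of hairpins made without the usual processing had 4 tested arms, 0 calls and a median of 0.15, with miR-484-5p at 0.14 (SE 0.310) and miR-320-3p at 0.16 (SE 0.334). That median ran from −0.09 without L-Tyr replicate 1 to 0.32 without control replicate 3, and was −0.19 with the correction for base composition.

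Marker lists of cell types were set beside these results, with the same shares over all arms for their calls. The list written for pigment cells, miR-211, miR-204 and miR-146a, summed to 11061 to 17085 CPM in control and 24242 to 29690 CPM in L-Tyr. Its 3 tested arms, both arms of miR-211 and miR-146a-5p, were above control without overlap, as were 10.1% of all arms tested. Among them only miR-211 is a pigment cell miRNA, so the list rests on that hairpin. The lists for erythroid, leukocyte, epithelial, muscle and pluripotent cells had no arm with enough counts to be tested, and those of muscle were at 0 in the 6 libraries. The keratinocyte miRNA miR-203-3p was not on the epithelial list. It was tested, with a log2 fold change of 1.91, and was not called. The neural list rested on miR-9 (−0.32 to −0.25 for its 5p arms), and miR-124 had no tag. The hepatic list had 1 tested arm, miR-192-5p (0.03, SE 1.47). The stromal and endothelial list, 6 arms tested and 0 called, summed to 2015 to 3603 CPM in control and to 3014, 7735 and 2803 CPM in L-Tyr, of which miR-143-3p had 6808 CPM in replicate 2. That library also held 65 counts of the erythroid miR-451a, where the others held 0 to 4, and 18 of the lymphocyte miR-150-5p and 20 of the hepatic miR-122-5p, where the others held 0. The leukocyte miR-223-3p had 1, 19 and 2 counts in control and 1, 0 and 0 in L-Tyr. L-Tyr replicate 1 held 42 counts of the epithelial miR-141-3p and 33 of miR-200a-3p, where the other libraries held 0 or 1. The epithelial miR-200c-3p had 1, 1 and 24 counts in control and 7, 0 and 0 in L-Tyr. These untested markers were named after their values were seen. miR-143-3p had a log2 fold change of 1.07 (SE 0.503, adjusted p = 0.412), or 0.16 without replicate 2, and the part of other cells or RNA in these results was not tested.

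The base composition of the tags moved with the comparison. Of the 79 arms richest in G and C (53.3% to 85.3%), 10 had an unadjusted p under 0.05 with a higher level in L-Tyr and 0 with a lower one, and their median log2 fold change was 0.14. In the 79 arms poorest in G and C (29.7% to 45.4%) the numbers were 3 and 6, and the median was −0.26. Across all 237 arms tested, which share the same 6 libraries, the Pearson correlation of G and C content with the log2 fold change was 0.135 and the Spearman correlation 0.196. Across the 152 of them with a mean count of at least 50 these were 0.357 and 0.369. Against the mean of the controls, the median deviation of the 79 richest arms was 0.46 in L-Tyr replicate 1, 0.15 in replicate 2 and 0.09 in replicate 3, and between −0.09 and 0.20 in control libraries. With each library corrected for base composition, 6 of the 7 calls were kept, let-7d-5p was lost, and miR-211-5p and miR-10b-5p were added, and beyond this correction the part of base composition in the results was not tested.

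**Figure D5:**
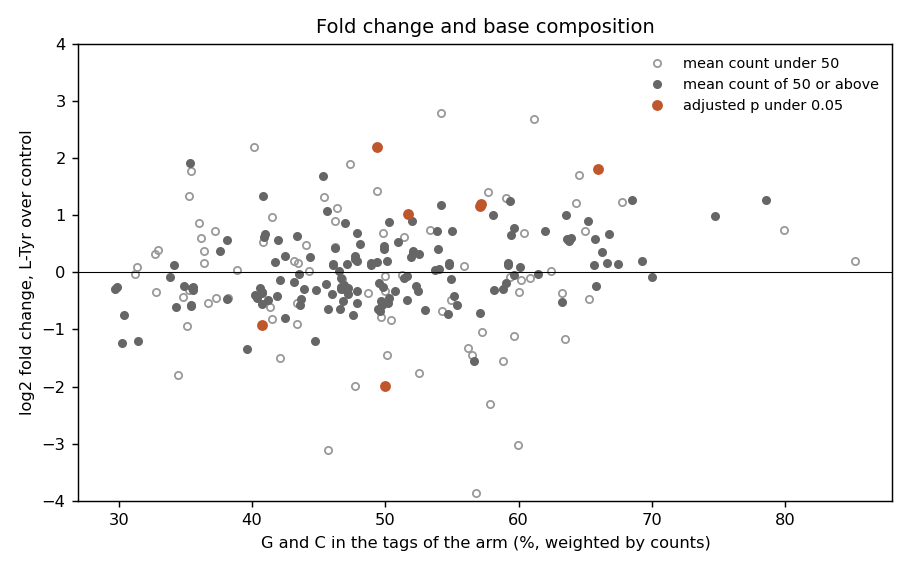
Log2 fold change, L-Tyr over control, of each arm tested against the share of G and C in its tags (%, weighted by counts). Filled points have a mean count of at least 50, called arms are in orange, and 3 arms beyond the axis are not drawn. The median is −0.26 in the 79 arms poorest in G and C and 0.14 in the 79 richest.

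The place of the hairpins in genes was described without a test. Tested arms in introns of a gene on their strand (78 arms) had a median log2 fold change of 0.05, those outside any gene on their strand (81 arms) of 0.03, and those in exons (31 arms) of −0.09. Of the 7 calls, 4 higher and 1 lower lay outside genes, 1 in an exon and 0 in introns. Over all 237 arms tested, 2.11% were called higher and 0.844% lower. The 4 higher calls outside genes were miR-30d-5p and the called arms of miR-129, whose 5p arms share nearly all their counts. A further 47 arms had no entry in the mm9 annotation, miR-3963 among them.

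When the L-Tyr libraries were tested against those exposed to 5-Brd-2′-dU, 6 of 231 arms were called (2.6%), 3 higher and 3 lower in L-Tyr. Both arms of miR-211 and miR-1249-3p were those higher. miR-30d-5p (0.65, adjusted p = 0.183) and miR-129-5p of mir-129-2 (−0.37, adjusted p = 0.707) were not called between the exposures. Without 5-Brd-2′-dU replicate 2 there were 2 calls, without L-Tyr replicate 3 there was 1, and without L-Tyr replicates 1 and 3 there were 0 with edgeR, where 11 arms had an unadjusted p under 0.05.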

How the data were processed

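Small RNA from B16F1 cells was sequenced as single libraries, and 6 of 9 libraries were compared here. The authors trimmed the reads, mapped them to miRBase entries with the BaseSpace Small RNA application, and deposited a table of raw counts per sequence tag. The submitters' processing notes name mm9, FastQC, MultiQC, DESeq and DESeq2. The deposited normalized counts and the authors' comparison tables (fold changes and p-values) were not used, and RT-qPCR and protein data were not analysed here. All columns of the count table were mapped to samples (0 were not).

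From 6414 entries, 300 predicted hairpins (1.63% of the counts of the 6 libraries) were dropped, and 4199 tags of 13 to 20 nt were summed by hairpin and arm, taking a start below 35 as 5p. Sequences listed under more than 1 hairpin held 28.2% of the counts, and such arms are not independent. Arms passing edgeR's filterByExpr were tested with its quasi-likelihood test (edgeR 4.0.16, R 4.3.3, TMM scaling, no block), with Benjamini-Hochberg adjustment and a threshold of 0.05. Seed families (bases 2 to 8 of RefSeq sequences, 342 of 391 hairpins matched) and clusters (10000 bp) were fitted likewise. The 5p to 3p ratio and the share of the main start were tested with limma 3.58.1 on log2 ratios with 0.5 added. An exact permutation test of 3 against 3 libraries cannot go below p = 0.1, so none is given. Each method was tested on simulated data. Host genes and positions come from the mm9 annotation, and figures were drawn with matplotlib 3.10.9.

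Named arms were those called, the next in p up to 20, the 10 most abundant in control, the RT-qPCR miRNAs of the study, called and the 2 most abundant members of each list, leading families and clusters, and the 3 leading hairpins and arms for the ratio and the start. Members and lists were chosen with earlier results of these data known. Alternatives were other scalings, filters, tools (DESeq2 1.42.0), the replicate block, leaving out each library, other tag rules and, chosen after seeing the data, a correction for G and C content, leaving out L-Tyr replicates 1 and 3, counting each sequence once per family or cluster, and the arm fit's library scale.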

Additional observations from a re-analysis of the deposited data

Results flagged for a closer look

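Arms whose levels differed between the exposures, L-Tyr against 5-Brd-2′-dU, by edgeR's quasi-likelihood test are given here. miR-1249-3p was higher in L-Tyr by 2.32 on the log2 scale (SE 0.421, adjusted p = 0.0156), and against control cells by 1.81. miR-211-5p was higher by 1.70 (SE 0.209, adjusted p = 0.00522), and against control by 0.86. miR-211-3p was higher by 2.77 (SE 0.386, adjusted p = 0.00613), and against control by 1.00. miR-21a-5p had −1.80 (SE 0.271, adjusted p = 0.00613), against 0.56 relative to control (adjusted p = 0.619). miR-193b-3p had −4.88 (SE 0.845, adjusted p = 0.0136), against −1.16 relative to control (adjusted p = 0.89). miR-335-3p had −4.45 (SE 0.665, adjusted p = 0.00613), against 0.05 relative to control (adjusted p = 0.986).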

How the results depend on the processing

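The 7 called arms kept their direction in every alternative run. The count of called arms, 7, was 16 without a filter, 20 with DESeq2's Wald test, 2 for single tags, 3 without L-Tyr replicates 1 and 3, and 1 to 15 without each library in turn. Families, 5 called, gave 12 with DESeq2, 1 without L-Tyr replicates 1 and 3, and 1 to 12 without each library. Clusters, 2 called, gave 5 with DESeq2, 4 on the arm fit's library scale, 0 without L-Tyr replicates 1 and 3 (5 at an unadjusted p under 0.05 with edgeR) and 1 to 4 without each library. L-Tyr against 5-Brd-2′-dU, 6 called, gave 26 without a filter, 12 with DESeq2, 0 without L-Tyr replicates 1 and 3 (11 at an unadjusted p under 0.05) and 1 to 5 without each library. The ratio and start tests gave 0 in all. Where both replicates were left out, the lone L-Tyr library was assumed to vary like the controls. The cause of these changes was not tested.

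Deviations of same-numbered libraries from their group means had correlations of −0.16, −0.01 and −0.003, and the main fits treated them as unpaired. With 3 libraries in a group, such values cannot show whether same-numbered libraries were prepared together. With the replicate block 6 arms, 9 families, 1 cluster and 5 arms against 5-Brd-2′-dU were called, and miR-192-5p was at −0.33.

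Of 928 alternative values of 47 named arms, 44 changed sign, all of arms that were not called. With the G and C correction they were miR-484-5p (−0.48), miR-320-3p (−0.10), let-7b-5p (0.074) and miR-9-5p of mir-9-2 (0.033) and mir-9-1 (0.11), and with the block added −0.45 for miR-484-5p, −0.066 for miR-320-3p, 0.093 for let-7b-5p, −0.16 for miR-192-5p and 0.064 for mir-9-1. Without L-Tyr replicates 1 and 3 they were miR-378a-3p (−0.073), miR-29a-3p (0.074), miR-484-5p (−0.64), miR-320-3p (−0.069), miR-192-5p (−0.19), miR-9-5p (0.26 and 0.24) and let-7b-3p (−0.012). Scaling by total count gave miR-92a-3p 0.11, let-7b-5p 0.048 and miR-25-3p 0.031. Single tags gave miR-484-5p −0.020, let-7b-3p −1.38 and miR-181b-5p 0.36. A mean count of at least 50 gave miR-92a-3p 0.021, no filter gave miR-192-5p −0.0069, and each sequence once gave miR-378a-3p −0.0029. Without each library in turn the values ran from −0.13 to 0.10 for miR-378a-3p, from −0.20 to 0.15 for miR-92a-3p, from −0.34 to 0.016 for let-7b-5p, from −0.11 to 0.39 for miR-484-5p, from −0.070 to 0.37 for miR-320-3p, from −1.17 to 0.81 for miR-192-5p and from −0.14 to 0.82 for let-7b-3p.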
